A study of Homo sapiens with 2 samples.

Results

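The genes described here are 99 long non-coding RNAs (lncRNAs) whose level differed at least 3-fold between 2 libraries of C4-2B cells, a human castration-resistant prostate cancer line. They were chosen by their measured values. From the 16887 genes classed as lncRNA in the deposited gene table, those whose counts summed to at least 100 were taken, the host and housekeeping-like transcripts named SNHG, GAS5, ZFAS1, DANCR, MEG3 and EPB41L4A-AS1 were left out, and 1466 genes remained. A member had a CPM (counts scaled to the library total), plus 0.1, at least 3 times higher in either library than in the other. By this rule 53 lncRNAs were higher in the (R)-9b library, which is 3.62% of the 1466, and 46 were lower, which is 3.14%. Of the 29 genes with at least 100 counts that were left out by name, 0 differed 3-fold. Over all 15703 genes with at least 100 counts, the same rule took 1.64% as higher and 1.8% as lower, and over the 12380 protein-coding genes it took 1.3% and 1.78%.

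A long non-coding RNA is a transcript that is not known to be translated into a protein. Many are spliced and polyadenylated like messenger RNAs, and many start near a protein-coding gene or run through it on the opposite strand. Some act in the nucleus on transcription or splicing, some act in the cytoplasm, and for most no function is known. Many are expressed in few tissues, and several prostate lncRNAs are controlled by the androgen receptor.

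The cells received either vehicle or (R)-9b, an inhibitor of the tyrosine kinase ACK1, which the labels give as 1 µM overnight. Each condition was a single library of poly-A selected RNA from a cell line, so condition and library cannot be told apart, and no spread between cultures and no test can be given. The vehicle library had 65207444 gene counts in all and the (R)-9b library 57653965. The lncRNAs held 0.818% and 0.824% of these counts. Mitochondrially encoded genes held 1.49% of the vehicle counts and 9.54% of the (R)-9b counts, and the part of this difference in the values below was not tested. Scaling to the total without those genes would raise each log2 ratio of CPM by 0.123, and those of rare genes on CPM + 0.1 by less. Because the RNA came from whole cultures, fewer cells expressing a lncRNA and less of it per cell cannot be told apart.

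The labels call the cell type human breast cancer, whereas the paper describes C4-2B as a prostate line. All 9 prostate markers examined had at least 100 counts in the 2 libraries together, among them KLK3, which encodes prostate-specific antigen, with 146597 counts in vehicle and 297728 in (R)-9b. Of 8 breast markers, ESR1 had 2 counts in each library and SCGB2A2 and ANKRD30A had 0. GATA3 had 38 and 30, TFF1 had 41 and 73, and PIP had 124 and 595, more than 3-fold higher in (R)-9b. The 8 breast markers summed to 223 and 704 counts, most of them from PIP. The 5 immune markers summed to 9 and 6 counts, and the 5 stromal and endothelial markers to 1892 and 2434.

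Ratios below are (R)-9b over vehicle. A log2 ratio given with a 95% interval is that of the CPM, with an exact (Clopper-Pearson) interval from the 2 counts. Other log2 ratios, and those of neighbouring genes, are on CPM + 0.1. The intervals cover counting error only and take each count as a separate molecule, although copies made by PCR could not be told from separate molecules. Counts between 1 and 20 were even for 69.8% of lncRNAs in vehicle and 68.6% in (R)-9b, and the intervals were therefore also computed with the counts halved. The intervals printed below use the full counts unless halved counts are named. They are too narrow, even for counting error, if molecules were counted more than once. The source of the even counts was not tested. The interval of all 99 members lay on 1 side of a ratio of 1, with the full and with the halved counts, which the rule itself makes likely.

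**Figure D1:**
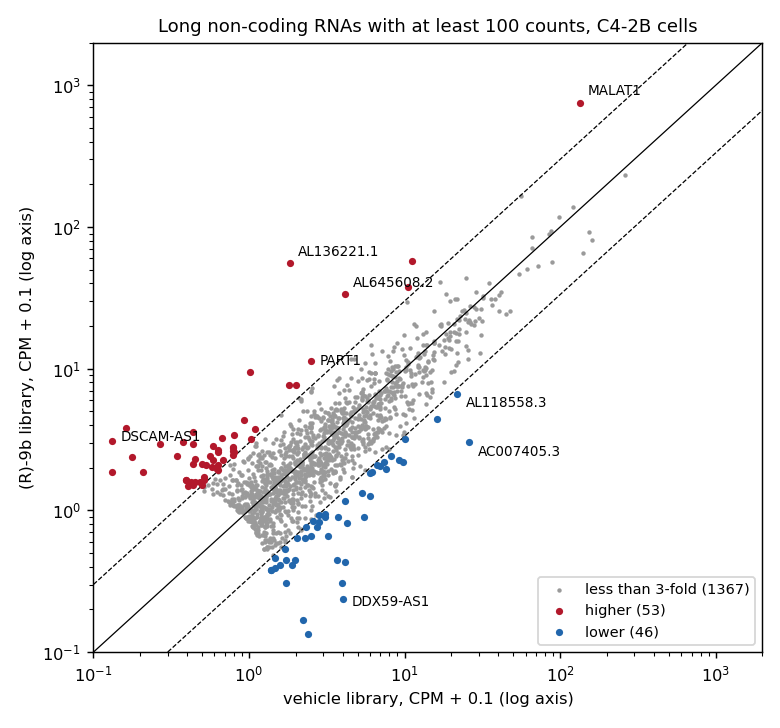
Level of each of the 1466 lncRNAs in the vehicle library (horizontal, CPM + 0.1, log axis) and in the (R)-9b library (vertical, CPM + 0.1, log axis), with the solid line at equal levels and the dashed lines at 3-fold. The 53 higher members lie above the upper dashed line and the 46 lower members below the lower one, and MALAT1 stands apart at the top with 134 and 755 CPM.

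The higher lncRNAs were on the whole rarer than the lower ones. The median member of the higher group had 175 counts over both libraries, with 36 of the 53 under 200 counts, and the median of the lower group was 248 counts, with 16 of 46 under 200. Over the 1367 lncRNAs that differed less than 3-fold the median was 291 counts, with 478 under 200. The lower group was thus close to these in its share under 200 counts. The log2 ratios on CPM + 0.1 ran from 1.59 to 4.92 with a median of 2.07 among the higher members, and from -4.15 to -1.59 with a median of -1.88 among the lower members. Over the 1466 lncRNAs the median was -0.11. The whole counting interval, from the full counts, lay beyond 3-fold for 32 of the higher and 20 of the lower members. With halved counts some of these intervals reached inside 3-fold, a log2 of 1.58. Among them, the near end was 1.57 for PTOV1-AS2, 1.51 for RUSC1-AS1 and -1.57 for LGALS8-AS1.

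Most of the counts in the higher group belonged to MALAT1, an abundant nuclear RNA that gathers in splicing speckles. It lies at chr11:65497688-65506516 on the plus strand (GRCh38, GENCODE 29), as a single exon of 8829 bases between protein-coding genes. MALAT1 had 8760 counts (134 CPM) with vehicle and 43534 counts (755 CPM) in (R)-9b, a log2 ratio of 2.49 (95% interval 2.46 to 2.52). Of all lncRNA counts, it made up 1.64% in vehicle (exact binomial 95% interval 1.61 to 1.68) and 9.17% after (R)-9b (9.09 to 9.25).

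The 53 higher members together held 2.30% of the lncRNA counts in vehicle and 13.1% in (R)-9b. Without MALAT1 in the members or in the total these shares were 0.667% and 4.31%. The 46 lower members held 2.85% in vehicle and 0.635% in (R)-9b.

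The largest ratio in the higher group on CPM + 0.1 belonged to AL136221.1, a sense-intronic transcript of 509 bases inside GRTP1 (chr13:113339450-113339958, minus strand). It had 114 counts (1.75 CPM) with vehicle and 3219 counts (55.8 CPM) in (R)-9b, with a log2 ratio of 5.00 (4.73 to 5.28). Per kilobase of exon, its level went from 3.43 to 110 CPM, above the 85.5 CPM per kilobase of MALAT1 in the same (R)-9b library. The host gene GRTP1, which encodes a TBC domain protein, had 1472 and 1598 counts, a log2 ratio of 0.29, and shared no exon base with AL136221.1.

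Several of the other large ratios started from a handful of counts in vehicle. LINC01192, an intergenic RNA of 18 exon blocks at chr3:163127923-163361563, had 4 counts in vehicle and 216 in (R)-9b, a log2 ratio of 5.93 (4.56 to 7.82). DSCAM-AS1, best known as an estrogen receptor-regulated lncRNA of luminal breast cancer, had 2 counts and 171 counts, a log2 ratio of 6.60 (4.72 to 9.65). It lies on the plus strand at chr21:40383083-40385358 inside DSCAM, a neural adhesion gene that had 2 counts in each library. NCKAP5-IT1, an intronic transcript of NCKAP5, had 2 and 102 counts, a log2 ratio of 5.85 (3.96 to 8.92), and NCKAP5 itself had 83 and 54. In these 3 genes the vehicle library held at most 4 counts, so the upper end of each interval is far from the lower.

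AC008735.2, antisense to the splicing factor gene U2AF2, had 5 and 131 counts (0.0767 and 2.27 CPM), a log2 ratio of 4.89 (3.63 to 6.54). U2AF2 had 23721 and 20298 counts. AC027796.4, antisense to CTNS, the gene of the lysosomal cystine transporter, had 11 and 164 counts, a log2 ratio of 4.08 (3.20 to 5.11), against 1899 and 1383 counts of CTNS. Of their exon bases, 20.1% and 10.1% are also exonic in another gene, and the sources used here state that only uniquely aligned, unambiguous reads were counted but not whether strand was used.

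GAPLINC, known from gastric cancer, is an intergenic RNA at chr18:3466250-3478978. It had 22 counts (0.337 CPM) with vehicle and 201 (3.49 CPM) in (R)-9b, a log2 ratio of 3.37 (2.73 to 4.08). TGIF1, the nearest protein-coding gene at 6272 bases, encodes a repressor of TGF-β signalling and moved the other way, with 2106 and 1032 counts and a log2 ratio of -0.85. AL645608.2, 8980 bases from SAMD11 at chr1:911435-914948, had 265 counts (4.06 CPM) and 1941 counts (33.7 CPM), a log2 ratio of 3.05 (2.86 to 3.24). SAMD11 had 1445 and 2287 counts, a log2 ratio of 0.84.

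**Figure D2:**
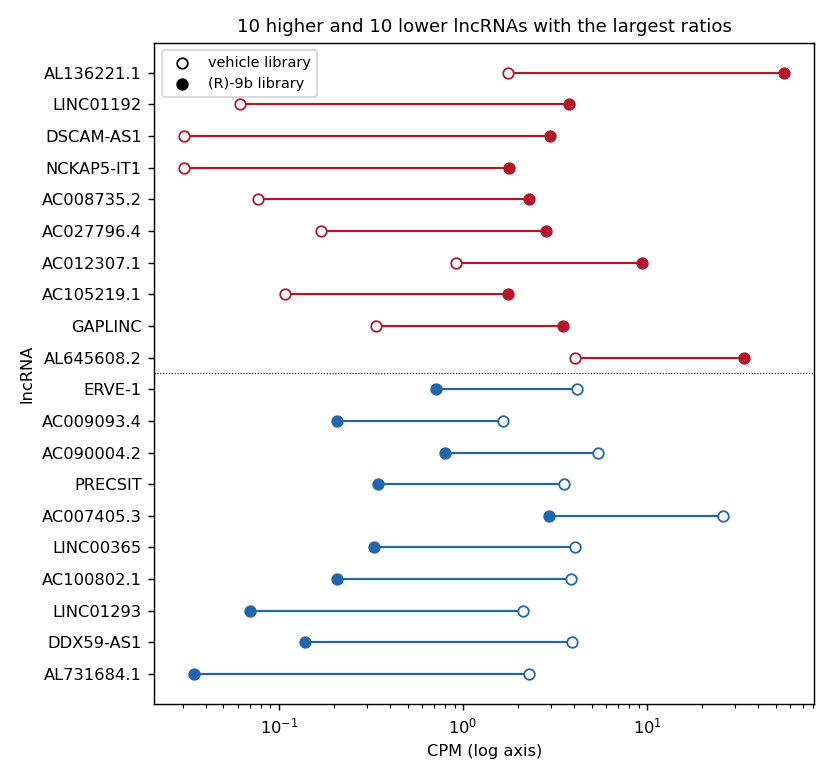
Level in CPM (log axis) of the 10 higher (red) and 10 lower (blue) lncRNAs with the largest ratios on CPM + 0.1, with open circles for the vehicle library and filled circles for the (R)-9b library. Each point is 1 library, and the vehicle level of DSCAM-AS1 and NCKAP5-IT1 and the (R)-9b level of AL731684.1 rest on 2 counts.

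The 5 higher members with the most counts were MALAT1, AC117453.1, AL136221.1, LINC00161 and AL645608.2. AC117453.1, which runs antisense through KCNMB2 at chr3:178202050-178385417, had 727 counts (11.1 CPM) and 3302 counts (57.3 CPM), a log2 ratio of 2.36 (2.24 to 2.48). KCNMB2, which encodes a subunit of a potassium channel, had 0 counts in both libraries, where up to 3 counts would be compatible with a count of 0. LINC00161, an intergenic RNA at chr21:28539318-28540355 with no protein-coding gene within 331836 bases, had 679 counts (10.4 CPM) and 2172 counts (37.7 CPM), a log2 ratio of 1.86 (1.73 to 1.98).

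PART1 and SOCS2-AS1 are androgen-regulated prostate lncRNAs. PART1, at chr5:60487713-60547657, had 156 counts (2.39 CPM) with vehicle and 645 counts (11.2 CPM) in (R)-9b, a log2 ratio of 2.23 (1.97 to 2.49). It overlaps the cAMP phosphodiesterase gene PDE4D on the opposite strand, which had 325 and 316 counts. SOCS2-AS1 had 46 and 144 counts, a log2 ratio of 1.82 (1.34 to 2.34). SOCS2, a feedback inhibitor of cytokine and growth hormone signalling, lies on the opposite strand and had 834 and 2049 counts, a log2 ratio of 1.47. SOCS2-AS1 starts 1954 bases inside SOCS2 and runs back through its start, so the 2 genes overlap there.

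These 2 genes and MALAT1 were the members in a list of 33 lncRNAs tied to prostate cancer or androgen. Of the 16 in that list with at least 100 counts, 3 were at least 3-fold higher, 0 were 3-fold lower, 12 were within 2-fold and the median log2 ratio was 0.37. Over all 1466 lncRNAs, 3.62% were higher, 3.14% lower and 1187 within 2-fold, with a median of -0.11. Among the others, PCAT1 had 523 and 651 counts, SCHLAP1 had 319 and 300, and DRAIC had 204 and 103, a log2 ratio of -0.78. In a list of stress, p53 and hypoxia lncRNAs, 0 of 13 with at least 100 counts differed 3-fold in either direction. A list of 13 is too small for a count of 0 to be told from the shares over all lncRNAs. The median was 0.03, and 8 of the 13 were within 2-fold, against 81.0% of all lncRNAs. Beyond 2-fold, NEAT1, MIR34AHG and PURPL were higher and HIF1A-AS3 and LINC00963 lower. Of 9 nuclear and chromatin lncRNAs, 1 was 3-fold higher, MALAT1, and 0 were 3-fold lower, with a median of 0.55.

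**Figure D3:**
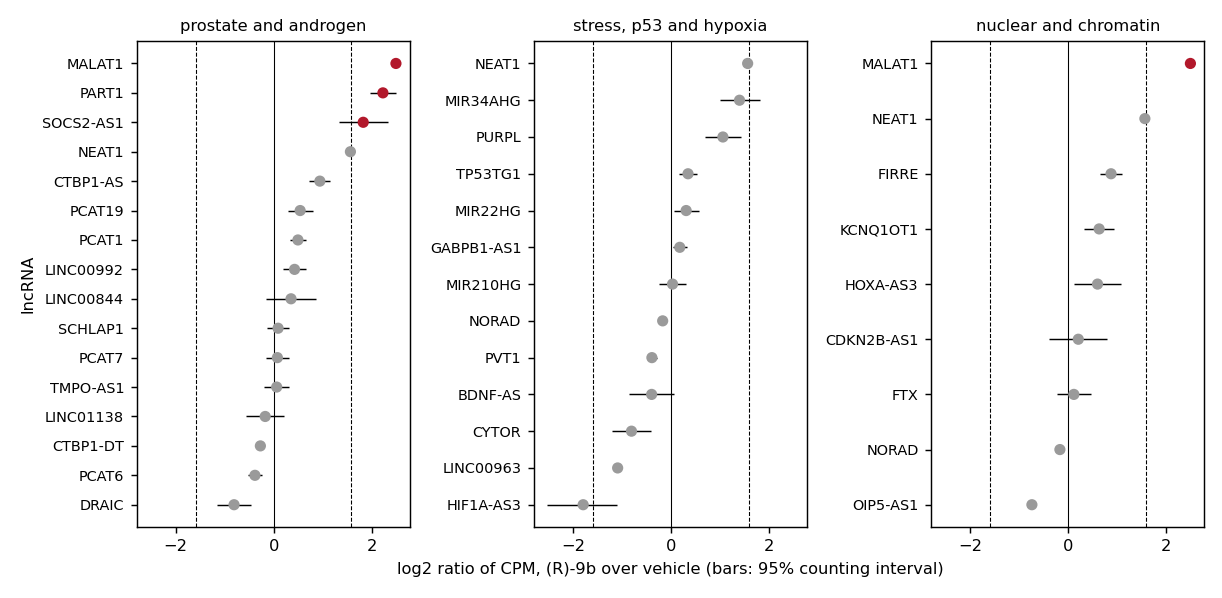
Log2 ratio of CPM, (R)-9b over vehicle, of the lncRNAs with at least 100 counts in 3 lists, with 95% counting intervals as bars, members in red and dashed lines at 3-fold. MALAT1, PART1 and SOCS2-AS1 are the members among them, and NEAT1, at 3665 and 9575 counts, lies just inside the dashed line, where its ratio on CPM + 0.1 was 2.95.

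The lower group was led by lncRNAs of between 100 and 300 counts in vehicle that were nearly absent from the (R)-9b library. AL731684.1, at chr6:170736173-170737777, had 149 counts (2.29 CPM) with vehicle and 2 (0.0347 CPM) in (R)-9b, a log2 ratio of -6.04 (-9.10 to -4.16). LINC01293 had 138 and 4 counts, a log2 ratio of -4.93 (-6.83 to -3.54), and AC100802.1 had 253 and 12, a log2 ratio of -4.22 (-5.19 to -3.39). All 3 are intergenic, 151481, 15822 and 19998 bases from PDCD2, POLE4 and SLC18A1, of which PDCD2 had 3976 and 3836 counts, POLE4 had 2514 and 1725, and SLC18A1 had 1 and 6.

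DDX59-AS1 at chr1:200669507-200694250 starts 462 bases inside DDX59, the gene of a DEAD-box RNA helicase on the opposite strand, and crosses its start. It had 255 counts (3.91 CPM) with vehicle and 8 (0.139 CPM) in (R)-9b, a log2 ratio of -4.82 (-6.04 to -3.82). DDX59 was lower as well, with 1953 and 954 counts, but by less, with a log2 ratio of -0.85.

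LINC00365, intergenic at chr13:30103178-30108875, had 264 and 19 counts, a log2 ratio of -3.62 (-4.37 to -2.95), while KATNAL1, 93755 bases away, had 1364 and 1224. PRECSIT, a lncRNA named for its regulation by p53 and its link to STAT3, had 232 counts (3.56 CPM) and 20 counts (0.347 CPM), a log2 ratio of -3.36 (-4.10 to -2.70). It is a single block of 6265 bases at chr13:110863987-110870251, 8289 bases from ANKRD10, which had 902 and 911 counts. The lncRNA and its nearest gene thus parted in both of these cases.

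AC007405.3 was the lower member with the most counts, 1696 (26.0 CPM) with vehicle and 170 (2.95 CPM) after treatment, a log2 ratio of -3.14 (-3.38 to -2.91). It was also the lower member with the highest level per kilobase of exon in vehicle, 26.9 CPM. GENCODE 29 places it at chr2:170771113-170778148, 5638 bases before ERICH2 on the same strand. ERICH2, an uncharacterised glutamate-rich protein gene, had 143 and 10 counts, a log2 ratio of -3.07. RefSeq draws ERICH2 from base 170770378 to base 170798977 of the same chromosome, a span that contains AC007405.3, so in that annotation the pair belongs to 1 locus. The deposited description of AC007405.3 is also glutamate rich 2, the name of ERICH2.

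AC090004.2 had 354 and 46 counts, a log2 ratio of -2.77 (-3.24 to -2.32), and has no position in GENCODE 29. AC009093.4, intergenic on chromosome 16, had 107 and 12 counts, a log2 ratio of -2.98 (-3.98 to -2.11). ERVE-1, derived from an endogenous retrovirus of the E group, had 270 and 41 counts, a log2 ratio of -2.54 (-3.05 to -2.06). ERVE-1 has related copies in the genome and AC009093.4 lies among copies of the NPIPB family, so their counts, made from uniquely aligned reads, may miss part of their RNA. The same holds among the higher members for PDXDC2P-NPIPB14P, with 25 and 85 counts.

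Of the remaining lower members with many counts, AL118558.3 had 1416 counts (21.7 CPM) and 375 counts (6.50 CPM), a log2 ratio of -1.74 (-1.91 to -1.57). It lies 15085 bases from DYNC1H1, the heavy chain of cytoplasmic dynein, which had 35014 and 17180 counts, a log2 ratio of -0.85. LINC01579, on chromosome 15, had 648 and 178 counts, a log2 ratio of -1.69 (-1.93 to -1.45). IL6R-AS1 had 627 counts (9.62 CPM) and 121 counts (2.10 CPM), a log2 ratio of -2.20 (-2.49 to -1.91). It starts 1371 bases inside IL6R, the gene of the interleukin 6 receptor on the opposite strand, and crosses its start. IL6R had 16902 and 9780 counts, a log2 ratio of -0.61.

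AC092117.1 and ELOB form the tightest pair of starts described here. ELOB encodes elongin B, a subunit of the elongin and VHL complexes. In GENCODE 29 the 2 genes start 22 bases apart on opposite strands. AC092117.1, a single block of 3250 bases at chr16:2777319-2780568, had 1050 counts (16.1 CPM) with vehicle and 250 counts (4.34 CPM) in (R)-9b, a log2 ratio of -1.89 (-2.10 to -1.69). ELOB had 12779 and 11283 counts, a log2 ratio of -0.00. The lncRNA was thus lower in (R)-9b beside a partner at the same CPM.

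The start regions of the members the text turns on were taken from RefSeq (GRCh38.p14), as windows of 250 bases before and 50 bases after each start. A window was found for 30 of the 99 members, 14 higher and 16 lower. In 4 of the 30, NALT1, VLDLR-AS1, DLGAP1-AS2 and LINC01579, the RefSeq start lay more than 500 bases from the GENCODE 29 start. The windows of MALAT1, the most abundant member, of PART1 and LINC00161 from the higher group, and of PRECSIT from the lower group are shown with motif matches in capitals, and the window between ELOB and AC092117.1 is shown because a single stretch lies between starts that differed in their RNA.
MALAT1 (chr11:65497488-65497787, plus strand; capitals mark GCGTG, the aryl hydrocarbon receptor core, on either strand): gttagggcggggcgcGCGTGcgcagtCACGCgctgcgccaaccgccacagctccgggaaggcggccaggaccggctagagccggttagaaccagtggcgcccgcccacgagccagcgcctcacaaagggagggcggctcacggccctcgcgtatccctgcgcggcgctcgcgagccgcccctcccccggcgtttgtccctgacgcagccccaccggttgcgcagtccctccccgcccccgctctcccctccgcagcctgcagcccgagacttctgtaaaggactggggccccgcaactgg
PART1 (chr5:60487682-60487981, plus strand; capitals mark an AP-1 match): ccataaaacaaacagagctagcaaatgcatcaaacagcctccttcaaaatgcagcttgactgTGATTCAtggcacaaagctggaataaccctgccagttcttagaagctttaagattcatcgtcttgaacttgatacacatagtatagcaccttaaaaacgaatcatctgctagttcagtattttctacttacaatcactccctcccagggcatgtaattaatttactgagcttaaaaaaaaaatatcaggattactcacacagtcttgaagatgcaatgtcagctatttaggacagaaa
LINC00161 (chr21:28539068-28539367, plus strand; capitals mark TATA box, CEBP-ATF and androgen receptor core matches): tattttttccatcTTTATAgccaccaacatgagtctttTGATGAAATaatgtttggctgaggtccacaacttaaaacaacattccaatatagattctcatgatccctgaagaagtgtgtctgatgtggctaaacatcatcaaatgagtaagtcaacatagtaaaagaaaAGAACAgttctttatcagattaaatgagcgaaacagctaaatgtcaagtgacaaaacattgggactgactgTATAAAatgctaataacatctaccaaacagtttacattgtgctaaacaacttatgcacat
PRECSIT (chr13:110870259-110870558, minus strand; capitals mark AP-1 and short cAMP response matches): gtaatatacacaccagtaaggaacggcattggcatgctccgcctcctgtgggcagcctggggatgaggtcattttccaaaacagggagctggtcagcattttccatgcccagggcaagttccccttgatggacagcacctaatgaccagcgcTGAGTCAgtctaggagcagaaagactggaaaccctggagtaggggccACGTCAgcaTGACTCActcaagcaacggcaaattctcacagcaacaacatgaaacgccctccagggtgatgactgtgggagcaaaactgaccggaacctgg
ELOB and AC092117.1 (chr16:2777231-2777530, minus strand, reading into ELOB; capitals run from the AC092117.1 start to the RefSeq ELOB start, 40 bases): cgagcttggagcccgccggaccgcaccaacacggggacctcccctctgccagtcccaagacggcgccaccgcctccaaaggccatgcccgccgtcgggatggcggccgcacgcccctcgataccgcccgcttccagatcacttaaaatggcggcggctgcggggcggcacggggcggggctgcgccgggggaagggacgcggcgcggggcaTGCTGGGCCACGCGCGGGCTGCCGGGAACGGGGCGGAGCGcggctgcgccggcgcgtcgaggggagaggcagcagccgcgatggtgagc

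Motif matches were searched on both strands in all 27305 RefSeq windows. GCGTG was in 6 of the 14 higher and 4 of the 16 lower windows, and in 36.3% of all windows. The AP-1 motif TGANTCA was in 2 of 14 and 5 of 16, and in 7.76% of all. The short cAMP response motif TGACGT was in 0 and 3 windows (8.32% of all), and its full form TGACGTCA, which contains it, was in 0 of both groups (1.98% of all). The androgen receptor core AGAACA was in 1 and 2 windows (14.9% of all), the TATA box TATAAA in 3 and 3 (12.0%), the E-box CACGTG in 1 and 1 (7.43%) and the CEBP-ATF response element TGATGNAAN in 1 and 2 (3.67%). The ER stress element and the heat shock element were in 0 windows of members, and in 0.0806% and 0.487% of all. The median GC content was 59.0% in the higher, 51.5% in the lower and 58.3% in all windows. With 14 and 16 windows, a single window moves a share by several percentage points, and a match is a string of letters and not a shown binding site.

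How the members sit beside protein-coding genes was read from GENCODE 29, which holds a position for 51 higher and 44 lower members. The other 4, AP000944.6, AC010624.5, AC090004.2 and AL162253.2, are described by counts alone. The class is set by the nearest protein-coding gene alone, and the classes exclude each other. A head-to-head pair has starts within 2 kb on opposite strands and runs outwards, whether or not the first bases overlap, and this class held 6 of 51 higher (11.8%) and 9 of 44 lower members (20.5%), and 490 of 1274 lncRNAs that differed less than 3-fold (38.5%). Any other overlap on the opposite strand was found for 24 of 51 higher members (47.1%), 10 of 44 lower members (22.7%) and 337 of 1274 others (26.5%). With the overlapping head-to-head pairs added, 4 higher, 5 lower and 291 others, opposite-strand overlap came to 28 of 51 (54.9%), 15 of 44 (34.1%) and 628 of 1274 (49.3%), so the higher members then stood close to the other lncRNAs. In the lower group most members stood separate from the nearest protein-coding gene, 25 of 44 (56.8%), against 16 of 51 (31.4%) and 352 of 1274 (27.6%). An overlap on the same strand was found for 5 higher and 0 lower members. Some higher members are also head-to-head with a second gene: AC006994.1 with KANSL1L, AC008735.2 with EPN1, HPN-AS1 with AC020907.6 and IL10RB-DT with IL10RB. The lower members had no such second gene, and the other lncRNAs were not searched for one. The gap in head-to-head pairs between higher and lower members thus rests on taking the nearest gene only. These shares were not tested, since the members were chosen by their ratios.

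**Figure D4:**
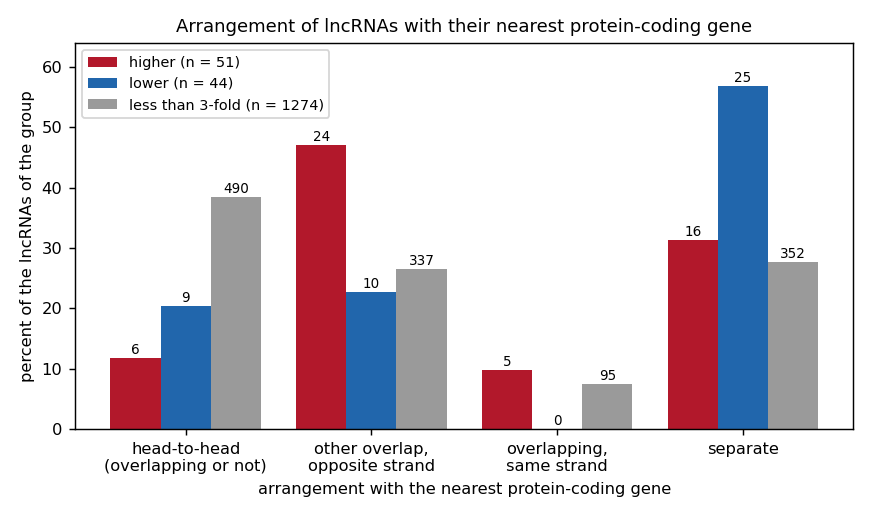
Percent of lncRNAs in each arrangement with the nearest protein-coding gene, for the 51 higher members (red), the 44 lower members (blue) and the 1274 lncRNAs that differed less than 3-fold (grey), with the number of genes above each bar. Opposite-strand overlap other than head-to-head is the tallest red bar at 47.1%, separate genes the tallest blue bar at 56.8%, and head-to-head pairs the tallest grey bar at 38.5%.

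The annotated gene types followed the same lines. Of the higher members 33.3% were classed as intergenic and 51.0% as antisense, of the lower members 65.9% and 31.8%, and of the other lncRNAs 39.4% and 46.1%. A single exon block made up 9 of 51 higher members (17.6%), 16 of 44 lower members (36.4%) and 26.8% of the others. PRR26, classed as a lncRNA in the deposited table, is protein-coding in GENCODE 29. No exon base was shared with another gene in 21 of the 51 higher members and in 32 of the 44 lower members, and more than 20% of exon bases were shared in 13 and 5. For those 18 members the counts depend most on how overlapping reads were assigned. Shared exon bases were not counted for the other lncRNAs, so whether either group differs from them in exon sharing was not tested. The members with a position were spread over 22 chromosomes, with no pair of members closer than 64730 bases.

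Nearest protein-coding genes were compared with the members because the rule did not use their values, although they come from the same 2 libraries. Of the 95 neighbours, 3 differed at least 3-fold in the direction of their lncRNA, 2 beside higher and 1 beside a lower member, and 0 differed 3-fold in the opposite direction. The 1 beside a lower member is ERICH2, next to AC007405.3. The RefSeq span of ERICH2 contains AC007405.3, and the deposited description of AC007405.3 is that of ERICH2. By both, the pair is 1 gene, so ERICH2 is not a neighbour independent of its member. Of the nearest neighbours of other lncRNAs, 13 of 1274 (1.02%) differed 3-fold in the direction of the lncRNA and 14 in the opposite direction. Of the 41 neighbours of higher members with at least 100 counts, 24 had a higher and 17 a lower level in (R)-9b, 37 were within 2-fold, and their median log2 ratio was 0.29. Of the 38 neighbours of lower members, 10 were higher and 28 lower, 35 were within 2-fold, and the median was -0.35. Over the 1043 neighbours of other lncRNAs, 415 were higher and 628 lower. The neighbour had the sign of its lncRNA in 58.5% of the higher and 73.7% of the lower members. Over the other lncRNAs it was 58.2%, a share that pools both directions. For the higher members the like count is the 415 of 1043 that were higher, and for the lower members the 628 that were lower. Both groups stood above these shares, and the difference was not tested. The median was -0.12 over the neighbours of other lncRNAs and -0.07 over all protein-coding genes with at least 100 counts. With the nearest gene of at least 100 counts taken for every member, the median beside the 51 higher members was 0.13. Over every protein-coding gene within 100 kb with at least 100 counts, the medians were 0.10 for 208 genes around higher members and -0.18 for 84 genes around lower members.

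**Figure D5:**
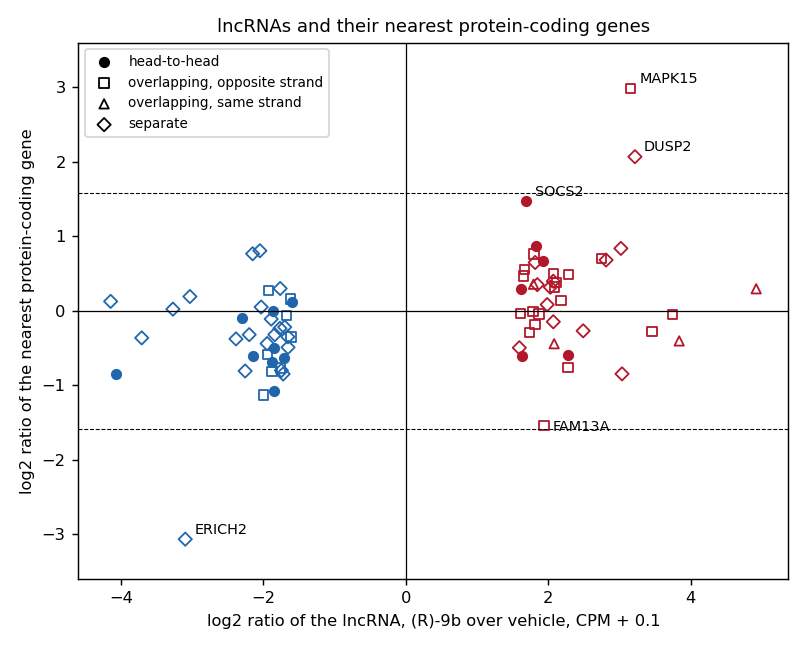
Log2 ratio of each member (horizontal, CPM + 0.1, (R)-9b over vehicle) and of its nearest protein-coding gene (vertical, same scale) for the 79 neighbours with at least 100 counts, with red for higher and blue for lower members, symbols for the arrangement and dashed lines at 3-fold. Of the neighbours, 3 lie beyond the dashed lines, MAPK15, DUSP2 and ERICH2, and the other 76 lie between them.

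MAPK15 and DUSP2, the 2 neighbours 3-fold higher with their lncRNA, both act in MAP kinase signalling. AC012307.1 had 60 counts (0.920 CPM) and 541 counts (9.38 CPM), a log2 ratio of 3.35 (2.96 to 3.76). It lies at chr2:96145602-96147012 on the same strand as DUSP2, only 162 bases before the start of that gene. DUSP2, which encodes a phosphatase of MAP kinases, had 2178 and 8096 counts, a log2 ratio of 2.07. AC105219.1, antisense to MAPK15, had 7 and 101 counts, a log2 ratio of 4.03 (2.93 to 5.38), and 55.5% of its exon bases are exonic in another gene. MAPK15, an atypical MAP kinase, had 292 and 2081 counts, a log2 ratio of 2.98, and with the use of strand not given, reads of the 2 genes outside shared exon bases may not be told apart.

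Head-to-head partners of lower members were mostly lower themselves. Of the 9, 8 had a log2 ratio below 0, the median was -0.61, and the range ran from -1.07 to 0.11, while 304 of 473 such partners of other lncRNAs were below 0, with a median of -0.15. The 8 include ELOB at -0.00 and YTHDF1 at -0.10. Scaling without mitochondrial genes would raise each log2 ratio by 0.123, which is more than either lies below 0. Counts of neighbours by sign, here and elsewhere, were made with the library total only. Besides DDX59, IL6R and ELOB the 9 partners included FNDC3A, with 7099 and 2984 counts beside 144 and 31 of AL161421.1. JARID2, an accessory subunit of the Polycomb complex PRC2, had 2209 and 1381 counts beside 172 and 38 of AL136162.1. TSNARE1 had 843 and 462 beside 84 and 16 of AC134682.1, and YTHDF1, an m6A reader, had 5557 and 4597 beside 204 and 32 of AL096828.3. MTMR9 was the partner above 0, at 1753 and 1676 counts beside 177 and 48 of AF131216.4, which shares 41.1% of its exon bases with another gene.

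Where the nearest gene was a head-to-head partner, as in 6 higher members, these partners went in both directions, with a median log2 ratio of 0.48. The second genes named above, KANSL1L at 0.08, EPN1 at -0.02 and IL10RB at 0.31, are not in that median, and AC020907.6 had 0 counts. SOCS2 at 1.47 was the highest and FSIP1, with 267 and 153 counts beside 45 and 135 of AC023908.3, was the lowest at -0.61. NALT1, named for its place beside NOTCH1, had 32 and 159 counts, a log2 ratio of 2.49 (1.94 to 3.09), and starts 426 bases from NOTCH1, a receptor of cell-to-cell signalling, which had 11086 and 6516 counts and a log2 ratio of -0.59. AC008736.1 had 125 and 438 counts beside 5558 and 7794 of NUDT19, 211 bases away. AC006299.1 had 61 and 178 beside 4320 and 4660 of SVIP. ADORA2A-AS1 had 45 and 156 counts and starts 967 bases inside UPB1 on the opposite strand, so the pair overlaps. UPB1 had 58 and 98 counts. ADORA2A-AS1 also overlaps ADORA2A, an adenosine receptor gene, on the opposite strand, which had 62 and 189 counts, a log2 ratio of 1.68.

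Among opposite-strand overlaps, higher members were found over genes at a higher, a similar and a lower level in (R)-9b. ACADL, an acyl-CoA dehydrogenase gene, had 1444 and 2075 counts over 22 and 164 of AC006994.1. FAM13A-AS1 had 32 and 125 counts, a log2 ratio of 2.14 (1.57 to 2.75), over FAM13A, with 3414 and 1033 counts and a log2 ratio of -1.54. SLC25A25-AS1 had 37 and 181 counts over the mitochondrial carrier gene SLC25A25, which had 7399 and 3850. HPN-AS1 had 65 and 212 counts over HPN, the gene of the prostate protease hepsin, which had 4946 and 4330. The 19 such genes over higher members with at least 100 counts were split into 10 higher and 9 lower, with a median log2 ratio of 0.13.

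Of the 8 opposite-strand genes over lower members with at least 100 counts, 6 were lower, with a median of -0.47, against 144 of 262 and a median of -0.06 for other lncRNAs. LGALS8-AS1 had 340 and 71 counts, a log2 ratio of -2.08 (-2.47 to -1.71), over LGALS8, the galectin-8 gene, with 3077 and 1239 and a log2 ratio of -1.13. VLDLR-AS1 had 476 and 120 counts, a log2 ratio of -1.81 (-2.11 to -1.52), over the lipoprotein receptor gene VLDLR, with 1632 and 845. LGALS8-AS1 shares 46.2% and VLDLR-AS1 12.3% of its exon bases with another gene. PRR26 had 158 and 32 counts over DIP2C, with 2856 and 1674.

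DUSP2, MAPK15 and ERICH2, the nearest neighbours given above, are counted again here, and ERICH2 is not independent of its member. Within 100 kb of a member, 8 protein-coding genes with at least 100 counts differed 3-fold. Of these, 3 of the 208 genes did so in the direction of a higher member (DUSP2, MAPK15 and ADORA2A) and 3 of 84 in the direction of a lower member (ERICH2, C1QTNF1 and CXCR4), beside 1.3% and 1.78% of all protein-coding genes. CXCR4, a chemokine receptor gene 91756 bases from a lower member, had 443 and 93 counts, a log2 ratio of -2.01. C1QTNF1, 82934 bases from AC021534.1, had 137 and 13 counts, while AC021534.1 had 489 and 107. The other 2 went the opposite way, LGI4 near HPN-AS1 with 132 and 21 counts and COL18A1 near LINC01694 with 322 and 915.

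The members closest to the threshold differed little from the lncRNAs just past it. Just inside on the higher side were AP003774.2 at a ratio of 3.02 on CPM + 0.1 with 26 and 81 counts, AC012615.6 at 3.04 and AC006299.1 at 3.08. Just outside were AC108134.1 at 2.96 with 35 and 103 counts, NEAT1, the scaffold of nuclear paraspeckles, at 2.95, and AC084198.4 at 2.94. On the lower side the fold was 3.02 for AF131216.4, 3.06 for AC112236.2 and 3.08 for AP001269.4 inside, and 2.97 for AC107959.1, 2.96 for TMC3-AS1 and 2.95 for HIF1A-AS3, an antisense gene at HIF1A, outside. The minimum of 100 counts left 15388 lncRNAs unexamined, of which 8877 had 0 counts in both libraries. Among them 144 were past the 3-fold limit upwards and 94 downwards.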

How the data were processed

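RNA was sequenced from 1 vehicle and 1 (R)-9b culture of C4-2B cells. The authors aligned reads to GRCh38 with STAR, and the labels list STAR 2.5.1a, featureCounts 1.4.6-p5 and Salmon 0.8.2, while the methods give another STAR version. The strand setting of the counting is not given in the sources used here. The authors deposited gene counts as whole numbers from uniquely aligned, unambiguous reads, the same values as CPM, which matched the count divided by the library total within 0.000269 counts, and moderated log2 CPM, used as an alternative. The authors deposited transcript tables of estimated counts, also as CPM and log2 CPM. These hold 0 of the 1466 lncRNAs and were not used for the members.

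Of 60871 lines, 200 that repeated a gene were dropped, leaving 60671 genes. Members were taken by the rule in the report, with their positions and neighbours from GENCODE 29 and promoter windows from RefSeq. Named genes were the 10 members with the largest ratio and the 5 with the most counts in each direction, list members, and members whose nearest protein-coding gene overlapped or was head-to-head and differed 3-fold. Other members and neighbours were named by arrangement or after their values were seen. The members and lists were chosen with earlier results of these data known. Intervals are exact at 95%, with Python 3.11.15 and scipy 1.17.1. No test was made, as there was 1 library per condition. The rule and the interval were run on simulated data in which each count was drawn independently. The changes placed there were larger than 3-fold and in lncRNAs with more counts than the minimum. The simulation therefore cannot show how the rule and the interval perform for rare members, ratios near 3-fold or counts that are mostly even. Alternatives used edgeR 4.0.16 (TMM, upper quartile) and DESeq2 1.42.0 (median of ratios) for scaling. Promoter windows of 69 members and positions of 4 were not analysed here. A few neighbouring genes are not reported here.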

Additional observations from a re-analysis of the deposited data

How the results depend on the processing

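The counts of 53 higher and 46 lower lncRNAs moved most with the limits of the rule. They were 14 and 13 with a pseudocount of 1 CPM, and 17 and 30 with the counts halved or with a minimum of 200 counts. Where the whole interval from the full counts had to lie beyond 3-fold, they were 32 and 20. With no minimum count they were 197 and 140, at 2-fold 120 and 159, and at 5-fold 16 and 10. Counting only members that share no exon base, chosen after seeing the data, gave 21 and 32. Under the other scalings, without a pseudocount and with moderated log2 CPM, the counts were 58 to 65 higher and 38 to 55 lower, and all 53 higher members remained. Of the 29 members named by rule, 28 or 29 stayed beyond 3-fold under each scaling and 23 with a pseudocount of 1 CPM. Removing MALAT1, chosen after seeing the data, lowered the share of the higher members from 2.30% to 0.667% in vehicle and from 13.1% to 4.31% in (R)-9b. The number of same-direction 3-fold neighbours was 2 or 3, and the medians of the neighbours kept their sign, under each alternative tried. The median beside the higher members was 0.29 over 41 genes, 0.13 over 51 with the nearest gene of at least 100 counts, and 0.10 over all genes within 100 kb. Recounting from transcript tables and describing isoforms were not run, because those tables hold none of these genes. No paired analysis was possible because there was 1 library per condition. No alternative leaves out a replicate for the same reason. At this depth a member with 100 counts has a wide interval, so small differences between such members are not detectable.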
